A study of Mus musculus with 20 samples.

Results

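The retina of mice with 2 copies of the CrxRip allele (CrxRip/Rip) was compared with the retina of wild-type mice at postnatal day 21 (P21). The members are the 4 samples that the titles place in these groups, 2 CrxRip/Rip and 2 wild-type, out of 20 samples in the series, together with all 1497 genes of the table for P21. All mice were of the C57BL/6J strain. CrxRip is a dominant mutant allele of Crx that arose in the mouse, and in CrxRip/Rip no wild-type copy of Crx remains. Other mutants at P21, with 2 samples each, serve as comparison. They are CrxRip/+ (the mutant allele beside a wild-type copy), Crx-/- (no Crx function) and Nrl-/- (no rod factor Nrl). The same CrxRip/Rip and wild-type genotypes at P2 are set beside the P21 values at the end. Each sample pooled 2 frozen retinas, and libraries that keep the strand of the RNA were made from 1 µg of total RNA.

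Crx and its relative Otx2 are homeodomain proteins that bind short TAATCC-like elements in the promoters and enhancers of photoreceptor genes. Otx2 acts first and commits precursors to the photoreceptor fate, Crx then raises the genes of the light response, and the leucine zipper factor Nrl with its target Nr2e3 selects the rod fate over the cone fate. Mutations of CRX in people cause Leber congenital amaurosis and cone-rod dystrophy. At P21 a wild-type mouse retina has finished its outer segments, the stacks of membrane discs that hold the visual pigments, and rods are its most abundant cells.

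Values are FPKM, which are fragment counts scaled to transcript length and to the mapped fragments of the library, rounded by the authors to 1 decimal. Changes are differences of log2(FPKM + 1), called log2 differences below and taken as CrxRip/Rip minus wild type, with the standard error (SE) of limma. The added 1 understates the fold of genes near 0. A gene was called higher or lower at a limma p under 0.05 after Benjamini-Hochberg adjustment over the 1497 genes. The authors' table holds only genes that passed their own threshold in at least 1 comparison, so counts are counts among selected genes and how many calls are false is not known. The authors' own log2 fold changes lie 0.22 lower than the ratio of mean FPKM, so changes smaller than this depend on the scaling. The summed FPKM of the table was 21569.4 and 23570.4 in CrxRip/Rip, against 55335.3 and 53395.9 in wild type (exact permutation test, two-sided, p = 0.333, the smallest that 2 against 2 samples allow). The median absolute log2 difference between the 2 replicates was 0.17 in CrxRip/Rip and 0.09 in wild type. In whole retina, fewer cells of a type and less RNA per cell cannot be told apart, nor can more cells and more RNA per cell. FPKM are relative to the other transcripts of the library, so neither rises nor falls in absolute RNA amount were tested.

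Most of what a wild-type retina expressed strongly in this table was lower in CrxRip/Rip, and several transcripts of the light response, such as Gnat1, Cnga1 and Opn1sw, were near or at 0. Of the 1497 genes, 544 were higher (36.3%) and 663 lower (44.3%), and 290 were not called. Both CrxRip/Rip samples lay below both wild-type samples in 720 genes and above both in 619. Groups that do not overlap are thus the rule in this table. The falls were the larger changes. On the log2 scale 134 genes fell by at least 2 and 38 by at least 4, against 41 and 3 genes that rose by as much. Of the 73 genes with at least 100 FPKM in both wild-type samples 69 were called lower and 2 higher, and 26 genes reached 100 FPKM in both CrxRip/Rip samples. The 73 were picked by their wild-type level among genes selected for change, which favours falls. Their count describes these genes and carries no test. The authors' deposited table called 292 genes higher (19.5%) and 554 lower (37.0%) at a log2 fold change of at least 1. Of these, 283 and 547 were called in the same direction here and 0 in the opposite one.

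**Figure D1:**
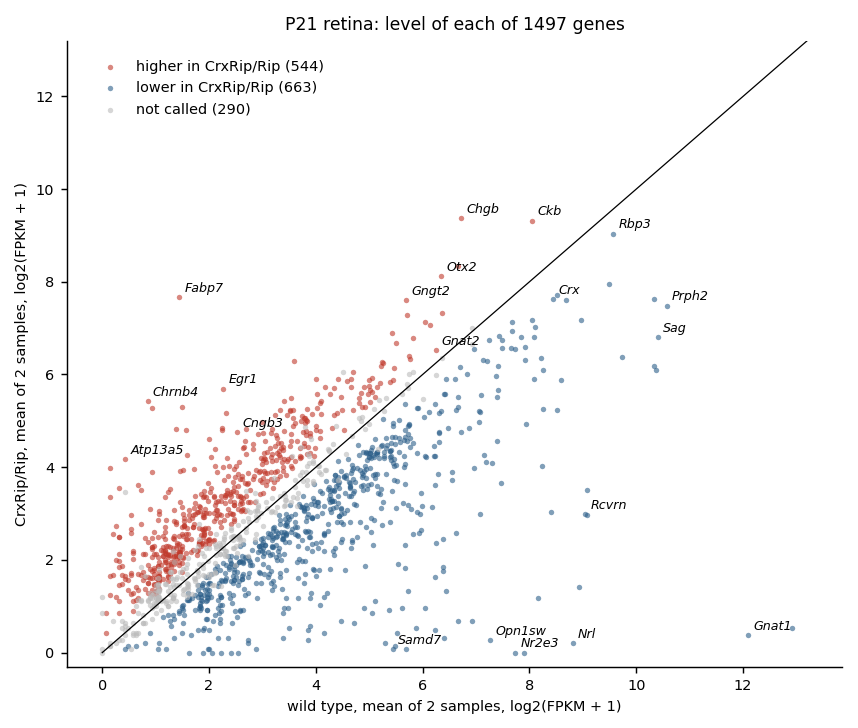
Mean level of each gene in CrxRip/Rip (vertical axis) and in wild type (horizontal axis), both as log2(FPKM + 1) with 2 samples a group, coloured by the limma call. Genes on the line are equal in both groups. Gnat1 and Nrl lie along the bottom edge, with high wild-type levels and CrxRip/Rip levels near 0, while Otx2, Chgb and Fabp7 lie above the line.

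Among the 5 genes with the highest mean in wild type were Gnat1, Prph2, Sag and Gnb1, all of them photoreceptor genes. In CrxRip/Rip the 5 highest were Chgb, Ckb, Rbp3, Nrep and Otx2. Chgb, which encodes the granule protein chromogranin B, had 644.9 and 680.2 FPKM in CrxRip/Rip, against 107.8 and 101.9 FPKM in wild type. It rose by 2.65 ± 0.09 (SE). Ckb, the brain creatine kinase, had 626 and 645.7 FPKM in CrxRip/Rip, against 275.5 and 253.2 FPKM in wild type, and rose by 1.26. Nrep, which encodes a neuronal regeneration related protein, had 306.6 and 334.9 FPKM in CrxRip/Rip, against 102.4 and 99 FPKM in wild type, and rose by 1.66. Rbp3, the retinoid carrier between photoreceptors and pigment epithelium, remained at 485.4 and 564.3 FPKM in CrxRip/Rip, against 736.2 and 778.9 FPKM in wild type, and fell by 0.53. In each of these 4 genes the groups did not overlap, as in most genes of the table, and the largest adjusted p among them was 0.0032 (limma).

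The rod factors were near 0 in CrxRip/Rip while Crx itself was lower and Otx2 higher. Crx (NM_007770, GRCm38 chromosome 7, 15865947 to 15879955) had 174.1 and 218.8 FPKM in CrxRip/Rip, against 350.7 and 343.9 FPKM in wild type. Both CrxRip/Rip samples were below both wild-type samples, and Crx fell by 0.83 ± 0.13 (SE). A value over the whole transcript does not show which part of Crx is altered, so it does not check the genotype. Otx2 (NM_144841, chromosome 14, 48656781 to 48667644), which acts before Crx and is also made by bipolar cells, had 263.5 and 289 FPKM in CrxRip/Rip, against 81 and 80.1 FPKM in wild type. It rose by 1.76 ± 0.11, with both CrxRip/Rip samples above both wild-type samples. Nrl (NM_008736, chromosome 14, 55518978 to 55524981) had 0.1 and 0.2 FPKM in CrxRip/Rip, against 466.1 and 427.6 FPKM in wild type, and fell by 8.61 ± 0.14. Nr2e3, by which rods keep cone genes silent, was listed at 0 in both CrxRip/Rip samples, against 223.7 and 198.8 FPKM in wild type. Samd7, a repressor of non-rod genes in rods, had 0 and 0.1 FPKM in CrxRip/Rip, against 41.6 and 43.5 FPKM in wild type. Esrrb, a nuclear receptor that supports rods, had 0.2 and 0.3 FPKM in CrxRip/Rip, against 71.7 and 95.1 FPKM in wild type, and Mef2c, a MADS-box factor active in rods, had 1.4 and 1.2 FPKM in CrxRip/Rip, against 17.4 and 16 FPKM in wild type. Among these rod genes no CrxRip/Rip sample came near a wild-type one.

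Of the 25 transcription factors listed, 15 were in the table, and 6 of these were higher, 8 lower and 1 was not called. These counts are near the shares over all genes (36.3% higher and 44.3% lower). Their median change was -0.77, against -0.14 over all 1497 genes. Besides Otx2, Prdm1, a repressor that keeps precursors from the bipolar fate, rose by 1.44 (12.6 and 11.7 FPKM in CrxRip/Rip, against 3.9 and 3.8 FPKM in wild type). Rxrg, a nuclear receptor of cones, rose by 1.22 (6.4 and 8.2 FPKM in CrxRip/Rip, against 2.5 and 2.6 FPKM in wild type). Isl2, a LIM homeobox gene, rose by 0.83 and the zinc finger gene Sall3 by 0.62, both at low levels. Sall3 had 1.2 and 2.9 FPKM in CrxRip/Rip, against 0.9 and 0.9 FPKM in wild type, and its adjusted p was 0.0343. It was not called without CrxRip/Rip replicate 2 (0.21), without either wild-type sample (0.62), with only these 2 genotypes fitted (0.62) or on the authors' scaling (0.48), and was at 1.04 without CrxRip/Rip replicate 1. Crxos, which lies 2.66 kilobases from Crx, rose by 1.58 (10.3 and 10 FPKM in CrxRip/Rip, against 3 and 2.5 FPKM in wild type). Pias3, a SUMO ligase that acts on Nr2e3, changed by -1.34, and the nuclear receptor Rorb by -0.77. Ankrd33, a repressor of photoreceptor genes, had 52.9 and 71.7 FPKM in CrxRip/Rip, against 78.2 and 71.2 FPKM in wild type. Its samples overlapped and it was not called (change -0.27, adjusted p = 0.144). Without CrxRip/Rip replicate 2, and on the authors' scaling, it was called, at -0.49. The largest adjusted p among the other 14 was that of Sall3 (limma).

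**Figure D2:**
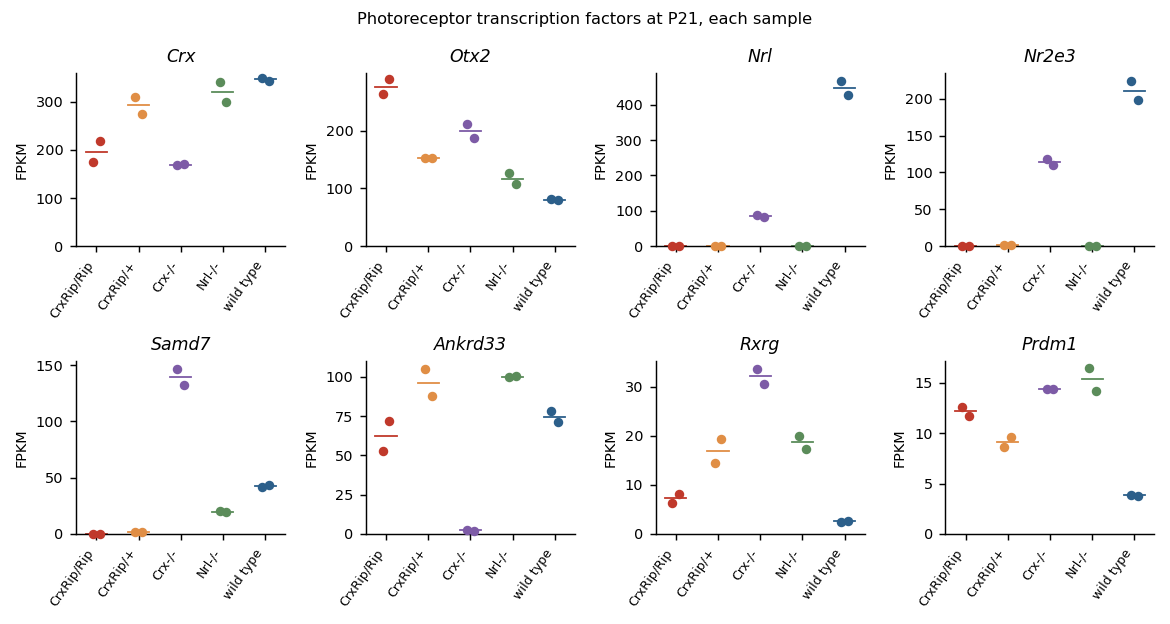
FPKM of 8 photoreceptor transcription factors in each P21 sample, in the order CrxRip/Rip, CrxRip/+, Crx-/-, Nrl-/- and wild type, with a line at the mean of the 2 samples. Nrl, Nr2e3 and Samd7 lie near 0 in both CrxRip genotypes and well above 0 in Crx-/-, Ankrd33 is low in Crx-/-, and Otx2 has its highest values in CrxRip/Rip.

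All 15 members of the rod phototransduction list were lower in CrxRip/Rip, and the members that carry out the first steps were almost absent. The 15 members had a median change of -4.15, against -0.14 over all 1497 genes, of which 44.3% were lower. Their summed level was 646.6 and 658.5 FPKM in CrxRip/Rip, against 19382.6 and 18276.0 FPKM in wild type. Gnat1 (chromosome 9, 107674437 to 107679634), the rod transducin alpha subunit, had 0.2 and 0.4 FPKM in CrxRip/Rip, against 4373.3 and 4352 FPKM in wild type, and fell by 11.72 ± 0.37 (SE). The catalytic subunits of the rod phosphodiesterase, Pde6a and Pde6b, had 1.4 and 1.9 and 8 and 5.6 FPKM in CrxRip/Rip, against 499 and 477.5 and 554.7 and 524 FPKM in wild type. Cnga1, the rod channel subunit that cyclic GMP opens, was listed at 0 in both CrxRip/Rip samples, against 244.5 and 228.2 FPKM in wild type. Its partner Cngb1 had 0.1 and 0.2 FPKM in CrxRip/Rip, against 5.9 and 5.4 FPKM in wild type. Slc24a1, the rod sodium, calcium and potassium exchanger, had 1.2 and 1.3 FPKM in CrxRip/Rip, against 293.1 and 275.6 FPKM in wild type, and fell by 6.99.

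Several other members of the same cascade kept a level well above 10 FPKM. Sag, the rod arrestin, had 118.4 and 104 FPKM in CrxRip/Rip, against 1394 and 1302.6 FPKM in wild type, and fell by 3.59 ± 0.11. Gnb1, the beta subunit of rod transducin, had 70.9 and 65 FPKM in CrxRip/Rip, against 1365.6 and 1271.1 FPKM in wild type, and Pde6g, the inhibitory subunit of the phosphodiesterase, had 69.8 and 74.6 FPKM in CrxRip/Rip, against 1345.4 and 1245.8 FPKM in wild type. Gngt1, the transducin gamma subunit, had 137.7 and 149.7 FPKM in CrxRip/Rip, against 516.1 and 483.1 FPKM in wild type, and fell by 1.79, a much smaller change than that of its alpha subunit. Grk1, the kinase that shuts off the pigments of rods and cones in the mouse, had 81.1 and 81.5 FPKM in CrxRip/Rip, against 296.9 and 292.2 FPKM in wild type. Rgs9, Rgs9bp and Gnb5, which together speed the inactivation of transducin, changed by -1.38, -3.08 and -1.04. In all 15 genes both CrxRip/Rip samples were below both wild-type samples, which held for 720 of all 1497 genes. The largest adjusted p among the 15 was 6.82e-05 (limma). Reep6, an endoplasmic reticulum protein of rods outside this list, fell by 5.38 (7.1 and 7.2 FPKM in CrxRip/Rip, against 343.2 and 333.1 FPKM in wild type).

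The promoters of 5 photoreceptor genes that fell are shown because each holds the TAATCC letters bound by Crx and Otx2. They were the 5 with the largest fall among called members of 6 photoreceptor lists that have a single promoter entry with this motif. Genes of 1 autosome were left out of this choice, so a gene there may have fallen more. The sequences are those of RefSeq on GRCm38.p6, from 250 bases before to 50 bases after the start of the gene, 5′ to 3′ on the strand of the gene, and capitals mark TAATCC or its reverse complement GGATTA, which share no bases with each other here. Cnga1 lies at chr5:72642703-72643002 on the minus strand, Samd7 at chr3:30746043-30746342 on the plus strand, Nxnl2 at chr13:51170775-51171074 on the plus strand, Gucy2f at chrX:142196887-142197186 on the minus strand and Sag at chr1:87803430-87803729 on the plus strand.
Cnga1: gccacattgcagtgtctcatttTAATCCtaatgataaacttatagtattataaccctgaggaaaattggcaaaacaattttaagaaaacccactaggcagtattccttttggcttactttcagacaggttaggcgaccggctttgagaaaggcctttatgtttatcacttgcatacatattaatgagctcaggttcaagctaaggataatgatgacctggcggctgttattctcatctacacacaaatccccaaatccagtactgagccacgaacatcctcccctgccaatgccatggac
Samd7: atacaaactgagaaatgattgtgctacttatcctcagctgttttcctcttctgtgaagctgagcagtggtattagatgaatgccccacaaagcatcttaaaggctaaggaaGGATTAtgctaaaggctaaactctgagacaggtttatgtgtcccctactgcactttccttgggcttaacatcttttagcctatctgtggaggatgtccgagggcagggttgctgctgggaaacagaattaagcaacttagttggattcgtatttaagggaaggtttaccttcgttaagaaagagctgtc
Nxnl2: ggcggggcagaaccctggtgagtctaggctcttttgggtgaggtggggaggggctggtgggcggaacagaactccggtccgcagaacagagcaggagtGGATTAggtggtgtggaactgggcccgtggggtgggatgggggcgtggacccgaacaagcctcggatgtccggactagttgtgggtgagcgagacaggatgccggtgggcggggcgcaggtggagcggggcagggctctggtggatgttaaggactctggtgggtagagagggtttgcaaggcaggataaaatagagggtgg
Gucy2f: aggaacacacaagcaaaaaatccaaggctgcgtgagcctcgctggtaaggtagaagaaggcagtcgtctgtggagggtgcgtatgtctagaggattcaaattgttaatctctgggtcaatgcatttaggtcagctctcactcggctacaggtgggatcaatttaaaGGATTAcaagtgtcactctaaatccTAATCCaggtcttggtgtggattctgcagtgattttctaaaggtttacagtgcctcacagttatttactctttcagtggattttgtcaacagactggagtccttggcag
Sag: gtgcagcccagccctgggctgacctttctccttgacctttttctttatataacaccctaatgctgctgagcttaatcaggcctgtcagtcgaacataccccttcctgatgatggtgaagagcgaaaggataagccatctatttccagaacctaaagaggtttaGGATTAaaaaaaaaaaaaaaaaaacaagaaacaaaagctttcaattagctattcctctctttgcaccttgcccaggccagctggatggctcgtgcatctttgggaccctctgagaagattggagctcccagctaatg
Counted from the start of the gene, the first base of the motif lies at -228 in Cnga1, -139 in Samd7, -152 in Nxnl2, -84 and -59 in Gucy2f and -87 in Sag. The motif, on either strand, was present in 2320 of the 32851 promoters of the table (7.06%). Of the 1497 genes, 1162 (77.6%) had a promoter entry by symbol, which is under the 80% needed to compare the share of promoters with the motif between called and uncalled genes, so that comparison is void. Over these 5 genes in that order, the CrxRip/Rip levels were 0 and 0, 0 and 0.1, 0.1 and 0.1, 0.5 and 0.2 and 118.4 and 104 FPKM, against 244.5 and 228.2, 41.6 and 43.5, 46.1 and 41.2, 45.9 and 43.4 and 1394 and 1302.6 FPKM in wild type. Sag alone kept more than 1 FPKM in CrxRip/Rip.

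Cone genes changed in both directions at P21. The 2 cone opsins, cone arrestin and a channel subunit were near 0, whereas the cone transducin gamma subunit, the other channel subunit and the catalytic phosphodiesterase subunit were higher in CrxRip/Rip. Of the 12 list members in the table, 5 were higher, 6 lower and 1 was not called, shares near the 36.3% and 44.3% over all genes, with a median change of -1.08. The short-wave opsin Opn1sw had 0.2 and 0.2 FPKM in CrxRip/Rip, against 164.5 and 141 FPKM in wild type, and fell by 7.0 ± 0.11 (SE). The middle-wave opsin Opn1mw had 0.5 and 0.7 FPKM in CrxRip/Rip, against 103.8 and 97.4 FPKM in wild type, and cone arrestin (Arr3) had 0.4 and 0.8 FPKM in CrxRip/Rip, against 122 and 118.2 FPKM in wild type. Cnga3, a subunit of the cone channel, was listed at 0 in both CrxRip/Rip samples, against 3.6 and 3.7 FPKM in wild type. Pde6h, which inhibits the cone phosphodiesterase, had 4.7 and 4.3 FPKM in CrxRip/Rip, against 86.3 and 78.4 FPKM in wild type, and Kcne2, a potassium channel subunit, had 3.5 and 4 FPKM in CrxRip/Rip, against 25.3 and 23.3 FPKM in wild type. In these 6 genes the lowest wild-type value was several times the highest CrxRip/Rip value.

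The other cone genes did not follow. Cngb3, the partner of Cnga3 in the channel, had 29.6 and 22.5 FPKM in CrxRip/Rip, against 4.7 and 4.8 FPKM in wild type, and rose by 2.22 ± 0.14. Gngt2, the cone transducin gamma subunit, had 157.2 and 229.1 FPKM in CrxRip/Rip, against 52.6 and 48.8 FPKM in wild type, and rose by 1.88 ± 0.18. Both CrxRip/Rip samples were above both wild-type samples in each. Pde6c, the catalytic subunit whose inhibitor is Pde6h, had 73.1 and 46.1 FPKM in CrxRip/Rip, against 30.9 and 33.3 FPKM in wild type, and rose by 0.84 ± 0.24. Slc24a2, the cone exchanger, had 18.3 and 18 FPKM in CrxRip/Rip, against 7.7 and 10.1 FPKM in wild type, and rose by 0.96. Gnat2, the alpha subunit, had 88.3 and 94.3 FPKM in CrxRip/Rip, against 83 and 68.2 FPKM in wild type, a change of 0.27 ± 0.11, the closest of these calls to the threshold (adjusted p = 0.0411). Gnb3, the beta subunit, had 108.8 and 144 FPKM in CrxRip/Rip, against 122.8 and 119.1 FPKM in wild type. Its samples overlapped and it was not called (adjusted p = 0.746). Thus 2 subunits of the same channel, and 2 of the same phosphodiesterase, lay on opposite sides of wild type. Without CrxRip/Rip replicate 1 the number of higher cone genes was 3 instead of 5, with Pde6c at 0.51 and Gnat2 at 0.32 no longer called. Pde6c was not called without wild-type replicate 1 either (0.78). Gnat2 was not called without CrxRip/Rip replicate 2 (0.23) or wild-type replicate 2 (0.14), was at 0.41 without wild-type replicate 1, and was not called with only these 2 genotypes fitted (0.27) or on the authors' scaling (0.05).

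**Figure D3:**
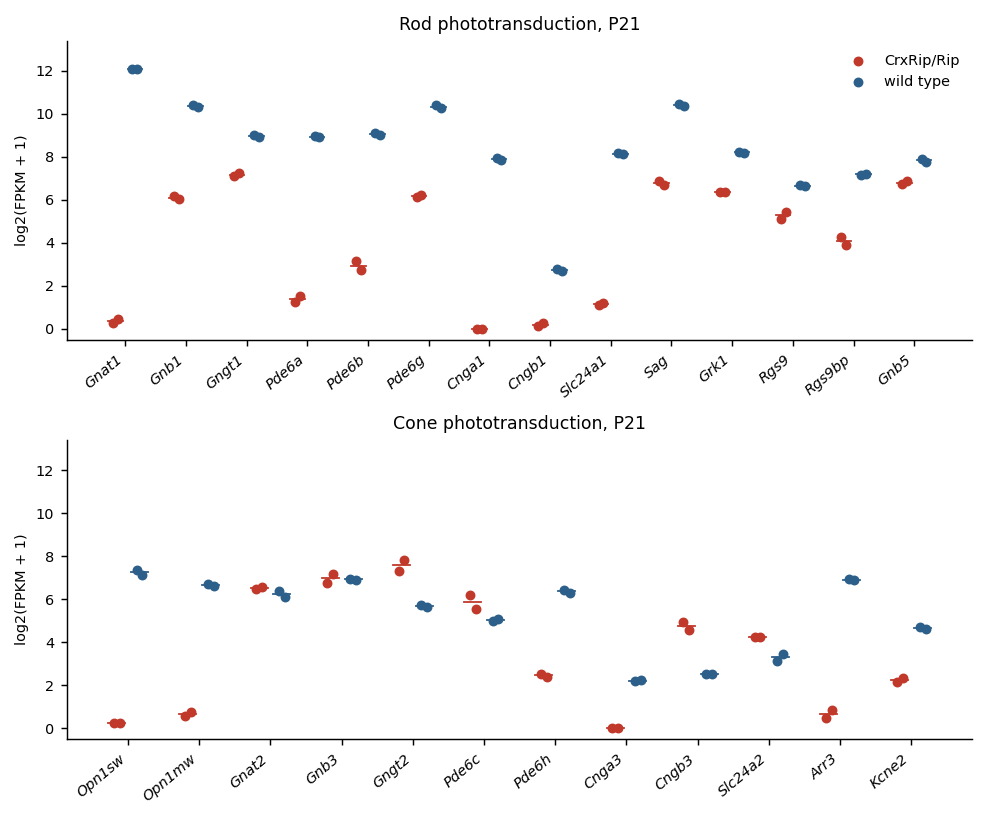
Levels of rod (upper panel) and cone (lower panel) phototransduction genes in each P21 sample as log2(FPKM + 1), CrxRip/Rip at the left and wild type at the right of each gene, with a line at the mean. Every rod gene shown is lower in CrxRip/Rip, while among cone genes Opn1sw, Opn1mw, Cnga3 and Arr3 are near 0 and Gngt2, Pde6c, Cngb3 and Slc24a2 lie above wild type.

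Of 15 genes that tune the light response, 14 were lower and 1 was not called, where over all genes 44.3% were lower. Their median change was -2.72, against -0.14 over all 1497 genes. Recoverin (Rcvrn), the calcium sensor that acts on Grk1, had 4 and 9.8 FPKM in CrxRip/Rip, against 531 and 520.9 FPKM in wild type, and fell by 6.16 ± 0.40 (SE). Guca1b and Guca1a, the calcium sensors of guanylate cyclase, changed by -5.58 and -2.72, and the cyclases themselves, Gucy2f and Gucy2e, by -5.09 and -3.04. Phosducin (Pdc), which binds transducin, had 172.2 and 220.2 FPKM in CrxRip/Rip, against 1210.3 and 1380.1 FPKM in wild type. Aipl1, a chaperone of phosphodiesterase, had 70.7 and 64.3 FPKM in CrxRip/Rip, against 323.4 and 282.2 FPKM in wild type, and Unc119, a lipid-binding carrier of transducin, had 229.2 and 264.9 FPKM in CrxRip/Rip, against 742.5 and 684.1 FPKM in wild type. The potassium channel subunit Kcnv2 of the inner segment changed by -3.01. Cacna1f, the calcium channel of the photoreceptor terminal, was the exception, with 45.4 and 57.6 FPKM in CrxRip/Rip, against 50.5 and 53.9 FPKM in wild type. Its samples overlapped and it was not called (adjusted p = 0.837).

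Of 23 outer segment and cilium genes, 19 were lower and 1 higher, against 44.3% lower and 36.3% higher over all genes. Their median change was -1.19. Prph2 and Rom1, which shape the rim of the discs, had 186.4 and 170 and 74.1 and 89.1 FPKM in CrxRip/Rip, against 1599.7 and 1439 and 879.8 and 818.3 FPKM in wild type. Rp1, a protein of the axoneme, fell by 3.0, and Fscn2, an actin-bundling protein, had 0 and 0.3 FPKM in CrxRip/Rip, against 40.2 and 36.8 FPKM in wild type. The disc-base cadherin Cdhr1 changed by -1.19, and Bbs5, which acts in transport at the cilium, by -1.27. Pcdh15, a protocadherin that Usher syndrome affects, was the 1 higher member (29.5 and 27.8 FPKM in CrxRip/Rip, against 14.2 and 15.8 FPKM in wild type). Lca5, a ciliary transport gene, had 12.2 and 10.9 FPKM in CrxRip/Rip, against 14.1 and 14.6 FPKM in wild type. Neither it nor the myosin Myo7a was called, but Lca5 was called lower with only these 2 genotypes fitted (-0.29) and on the authors' scaling (-0.50).

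In the matrix and adhesion list 8 of 9 were lower and 1 higher, with a median of -1.32. Over all genes 44.3% were lower and 36.3% higher. Impg1, a proteoglycan of the matrix between photoreceptors, had 0.9 and 2.1 FPKM in CrxRip/Rip, against 85.2 and 85.5 FPKM in wild type, while its relative Impg2 had 56.2 and 61.1 FPKM in CrxRip/Rip, against 101.4 and 91.4 FPKM in wild type. They changed by -5.15 and -0.71, and Impg2 was not called without wild-type replicate 1 (-0.63). Crb1, part of the adhesion complex at the outer limiting membrane, changed by -1.32. The adhesion molecule Cadm3 was higher, by 0.91. Of 12 genes of the photoreceptor synapse, 10 were lower and 1 higher, beside the same shares over all genes. Their median was -0.98. The calcium sensor Cabp4 had 2.4 and 1.8 FPKM in CrxRip/Rip, against 78.6 and 69.6 FPKM in wild type, and the scaffold Mpp4 had 17.6 and 27.9 FPKM in CrxRip/Rip, against 173.6 and 160.5 FPKM in wild type. Slc17a7, the vesicular glutamate transporter that bipolar cells share, fell by 0.81 only (185.7 and 232.9 FPKM in CrxRip/Rip, against 366.1 and 363 FPKM in wild type).

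Of 13 measured retinoid genes, 7 were higher and 6 lower, against 36.3% and 44.3% over all genes. Their median change was 0.79, against -0.14 over all genes, and the difference was not tested. Rdh8 and Rdh12, the retinol dehydrogenases of photoreceptors, had 1.1 and 0.8 and 12.6 and 10.7 FPKM in CrxRip/Rip, against 68.3 and 61.3 and 180.7 and 169.6 FPKM in wild type. Abca4, the flippase of the disc rim, changed by -1.88, and Dhrs3, an all-trans-retinol dehydrogenase, by -2.42. Among the higher members were Rpe65, Rdh5, Rgr, Rbp4, Stra6 and Ttr, genes of pigment epithelium, Müller glia or retinoid transport in blood. Rpe65, the isomerase of the pigment epithelium, had 4.2 and 4.2 FPKM in CrxRip/Rip, against 0.5 and 1.1 FPKM in wild type, and rose by 1.55. The largest adjusted p among the 5 given with values was 0.00181 (limma).

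Of 15 genes of photoreceptor survival and energy supply, 11 were lower and 2 higher, with a median of -1.16. The shares over all genes were 44.3% lower and 36.3% higher. Nxnl1, which encodes the rod-derived cone viability factor, had 7 and 2.9 FPKM in CrxRip/Rip, against 99.4 and 95.6 FPKM in wild type, and its relative Nxnl2 had 0.1 and 0.1 FPKM in CrxRip/Rip, against 46.1 and 41.2 FPKM in wild type. The hexokinase Hk2 had 5.2 and 4.7 FPKM in CrxRip/Rip, against 47.9 and 71.7 FPKM in wild type, and fell by 3.33 ± 0.20 (SE). Pfkfb2, which sets the pace of glycolysis, changed by -2.83, lactate dehydrogenase A (Ldha) by -1.16 (-0.70 without CrxRip/Rip replicate 1), and the lactate transporters Slc16a1 and Slc16a3 by -1.04 and -1.28. Kcnj14, an inward rectifier channel, had 0.4 and 0.4 FPKM in CrxRip/Rip, against 74.8 and 74.3 FPKM in wild type. The mitochondrial creatine kinase Ckmt1 fell by 1.66, in contrast to the cytosolic Ckb described above. Elovl2, which elongates long-chain fatty acids, was higher, with 49.2 and 55.2 FPKM in CrxRip/Rip, against 18.5 and 15.6 FPKM in wild type. Gpx3, a secreted glutathione peroxidase, had 1.5 and 1.8 FPKM in CrxRip/Rip, against 1.4 and 1.4 FPKM in wild type, and was not called.

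There were 24 genes with at least 10 FPKM in both wild-type samples and under 1 FPKM in both CrxRip/Rip samples. They include the cone pigments Opn1sw and Opn1mw, the factors Nrl, Nr2e3, Esrrb and Samd7, and Gnat1, Cnga1, Arr3, Gucy2f, Fscn2, Kcnj14 and Nxnl2, all given above. Outside the photoreceptor lists there were 10, Susd3, Pdzph1, Glp2r, Gpr152, Ppm1n, Gramd2, Syne3, Hcls1, Ccn4 and Chst3. Susd3, a sushi domain gene, had 0 and 0.1 FPKM in CrxRip/Rip, against 54.1 and 47.1 FPKM in wild type. Pdzph1, a PDZ domain gene, had 0.6 and 0.3 FPKM in CrxRip/Rip, against 55.9 and 60 FPKM in wild type, and Glp2r, the receptor of glucagon-like peptide 2, had 0.9 and 0.9 FPKM in CrxRip/Rip, against 39.9 and 41.1 FPKM in wild type. That each of the 10 lay below wild type follows from the thresholds. All were called lower, with changes from -2.96 for Chst3, which encodes a chondroitin sulfotransferase, to -5.62 for Susd3.

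In the opposite direction 11 genes had under 1 FPKM in both wild-type samples and at least 5 FPKM in both CrxRip/Rip samples. They were Chrnb4, Atp13a5, Ermap, Myocd, Arid3c, Srl, Tmem26, Tmem158, Rgs22, Trim43c and Ccdc175. Chrnb4, the beta 4 subunit of nicotinic acetylcholine receptors, had 48.4 and 35.3 FPKM in CrxRip/Rip, against 0.7 and 0.9 FPKM in wild type, and rose by 4.56 ± 0.35 (SE). Chrna3, the alpha 3 subunit with which it assembles and whose gene lies 1.59 kilobases away on chromosome 9, had 9.9 and 8.5 FPKM in CrxRip/Rip, against 2.9 and 2.5 FPKM in wild type, and rose by 1.46. Atp13a5, a P-type ATPase, had 16.8 and 17.2 FPKM in CrxRip/Rip, against 0.4 and 0.3 FPKM in wild type, and rose by 3.74 ± 0.09. Myocd, a coactivator of serum response factor, had 7.7 and 10.9 FPKM in CrxRip/Rip, against 0.1 and 0.1 FPKM in wild type, and Arid3c, an AT-rich domain factor, had 13.7 and 7.9 FPKM in CrxRip/Rip, against 0.2 and 0.3 FPKM in wild type. Tmem158, Rgs22, Trim43c and Ccdc175 rose by 2.43, 2.21, 2.13 and 2.05. The 2 CrxRip/Rip samples lay close together in Atp13a5 and further apart in Arid3c. That both lay above wild type follows from the thresholds in the 11 genes, but not in Chrna3, which they did not select.

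Among the 15 largest rises of well expressed genes, Fabp7 came first. Fabp7, the brain fatty acid binding protein of immature glia and progenitors, had 148.7 and 257.6 FPKM in CrxRip/Rip, against 2 and 1.4 FPKM in wild type, and rose by 6.20 ± 0.27 (SE). Kif19a, a kinesin that limits the length of cilia, had 27 and 48.6 FPKM in CrxRip/Rip, against 1.1 and 0.7 FPKM in wild type, and Acbd7, an acyl-CoA binding protein, had 28.8 and 25.6 FPKM in CrxRip/Rip, against 1.6 and 1.6 FPKM in wild type. Egr1, an immediate early zinc finger factor, had 44.2 and 57.5 FPKM in CrxRip/Rip, against 3.8 and 3.8 FPKM in wild type, and rose by 3.42 ± 0.29. Plaat1, a phospholipase, rose by 3.24, the phosphodiesterase-like Smpdl3a by 2.96, the glycosyltransferase Galnt14 by 2.85, and Srl, the calcium-binding protein sarcalumenin, by 2.94. In these 8 genes the lower CrxRip/Rip sample was several times the higher wild-type sample. Ermap and Mybph had replicates that stood apart. Ermap, an erythroblast membrane protein, had 23.7 and 6.1 FPKM in CrxRip/Rip, against 0.1 and 0.1 FPKM in wild type. Mybph, a myosin-binding protein of skeletal muscle, had 9.3 and 67.4 FPKM in CrxRip/Rip, against 1.6 and 2 FPKM in wild type, and its rise of 3.25 (adjusted p = 0.00237) was 1.88 without CrxRip/Rip replicate 2 and was not called with only these 4 samples in the fit. The fast muscle troponin Tnnc2 was also highest in replicate 2, with 1.6 and 9.7 FPKM in CrxRip/Rip, against 0.3 and 0.1 FPKM in wild type, and its rise of 2.14 was 1.12 without that sample and was not called with only these 4 samples. The part of muscle tissue in the Mybph value was not tested. No called gene of this paragraph had an adjusted p above 0.00509 (limma).

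Counts for the inner retina lists are small. Of 8 measured bipolar cell genes, 4 were higher and 4 lower, near the shares over all genes (36.3% and 44.3%), with a median of 0.04. Besides Otx2, Slitrk6, a synaptic membrane protein, rose by 2.03 (45.2 and 39.5 FPKM in CrxRip/Rip, against 10.2 and 9 FPKM in wild type), the channel subunit Kcng4 by 1.12 and the LIM homeobox gene Lhx4 by 0.92. Sebox and Car8 changed by -1.11 and -0.98, Cabp5, a calcium-binding protein of bipolar cells, by -0.83, and Prkca, which marks rod bipolar cells, by -0.90 (18.7 and 22.1 FPKM in CrxRip/Rip, against 36.6 and 41 FPKM in wild type). Among 6 horizontal cell genes 4 were lower, with Calb1 (calbindin) at 13.5 and 11.1 FPKM in CrxRip/Rip, against 20 and 19.3 FPKM in wild type, and 2 higher, with the anchoring protein Sphkap at 90 and 75.8 FPKM in CrxRip/Rip, against 53.9 and 52 FPKM in wild type. Of 5 amacrine cell genes the peptide gene Cck fell by 1.09, the nuclear factor Nfib rose by 1.06, and 3 were not called, among them Sst, which encodes somatostatin (2.3 and 2.4 FPKM in CrxRip/Rip, against 3 and 3.6 FPKM in wild type). Without CrxRip/Rip replicate 2 the higher amacrine members were 2. The ganglion cell list had 1 gene in the table, Prph, an intermediate filament protein, with 1.4 and 1.4 FPKM in CrxRip/Rip, against 1.1 and 0.9 FPKM in wild type. It was called (adjusted p = 0.0403), but not without CrxRip/Rip replicate 1 (0.26), CrxRip/Rip replicate 2 (0.26) or wild-type replicate 2 (0.19), nor on the authors' scaling (0.14).

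Of 17 neuronal channel and receptor genes, 12 were lower and 3 higher, against 44.3% and 36.3% over all genes. Their median was -0.72. Several lower members are photoreceptor genes given above. Drd4, the dopamine receptor of photoreceptors, had 1 and 0.9 FPKM in CrxRip/Rip, against 30.7 and 26.9 FPKM in wild type. Among 10 axon guidance and adhesion genes, 4 were higher and 4 lower, near the shares over all genes (36.3% and 44.3%). Ntng2 (netrin G2) changed by -2.16 and Dscaml1, an adhesion molecule of the immunoglobulin family, by -1.33, while the semaphorin Sema6d rose by 1.67. The higher members of this list were 2 instead of 4 without CrxRip/Rip replicate 2 or without wild-type replicate 1. Among 7 lipid genes, 4 were higher and 3 lower, too few to set apart from those shares. Abca1, which exports cholesterol, had 16.9 and 18.1 FPKM in CrxRip/Rip, against 3.3 and 2.9 FPKM in wild type, and Agpat3, which makes phosphatidic acid, had 76.5 and 79.7 FPKM in CrxRip/Rip, against 245.1 and 238.1 FPKM in wild type.

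Glial and stress genes were mostly not called. Over all 1497 genes 36.3% were higher, 44.3% lower and 290 genes not called. Of 13 Müller glia genes 5 were higher, near the share over all genes, 1 lower and 7 not called. Fabp7 is the member with the largest change. Sox9, a factor of Müller glia and progenitors, rose by 1.27 (7.4 and 6.3 FPKM in CrxRip/Rip, against 2.1 and 2.4 FPKM in wild type). Ptgds, a prostaglandin synthase that pigment epithelium also makes, had 27.3 and 39.1 FPKM in CrxRip/Rip, against 9.1 and 15.7 FPKM in wild type. Of 21 gliosis and stress genes 5 were higher, 1 lower and 15 not called. Glial fibrillary acidic protein (Gfap), the usual marker of reactive glia, had 8.6 and 6.5 FPKM in CrxRip/Rip, against 4.5 and 3.7 FPKM in wild type, and rose by 0.74 ± 0.17 (SE). Stat3, which acts upstream of Gfap, had 19.7 and 19.3 FPKM in CrxRip/Rip, against 8.5 and 9.4 FPKM in wild type. Serpina3n, another marker of reactive glia, had 0.9 and 0.7 FPKM in CrxRip/Rip, against 1.1 and 0.9 FPKM in wild type. It was not called, and in CrxRip/+ and Crx-/- it had 3 and 9.2 and 9.3 and 6.7 FPKM. Mt1, a metallothionein, had 31.7 and 32.8 FPKM in CrxRip/Rip, against 26.9 and 27 FPKM in wild type, and was not called. The amino acid stress genes Asns and Chac1 rose by 1.23 and 1.43, and Gadd45a fell by 1.71. Without CrxRip/Rip replicate 2 the higher members were 8 in the Müller glia list and 8 in the gliosis list. The lower Müller glia gene, Id3, was not called without wild-type replicate 1, without wild-type replicate 2 or without CrxRip/Rip replicate 1, and had 4.7 and 7 FPKM in CrxRip/Rip, against 9.4 and 8.7 FPKM in wild type.

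None of the 6 microglia and immune genes in the table was called in either direction by limma, with Ctss, a microglial protease, at 4.3 and 3.5 FPKM in CrxRip/Rip, against 3.6 and 3.2 FPKM in wild type. In this list 0 genes had an unadjusted p under 0.05, and the authors' deposited table called 0. Of 8 cell death genes, 4 were higher and 3 lower, which is not far from the shares over all genes (36.3% and 44.3%). The same shares apply to the short lists that follow. Cdkn1a, the cell cycle inhibitor p21, rose by 1.54 and Trp53 by 0.74. Of 9 immediate early genes, 6 were higher, 1 lower and 2 not called. Besides Egr1, Btg2 had 52 and 78.4 FPKM in CrxRip/Rip, against 26.7 and 23.4 FPKM in wild type, and Jun had 10.7 and 12.2 FPKM in CrxRip/Rip, against 5.5 and 5.6 FPKM in wild type, whereas Ier3 had 4.1 and 3.5 FPKM in CrxRip/Rip, against 20.7 and 18.5 FPKM in wild type, and fell by 2.10. Among 6 progenitor and cell cycle genes, 4 were higher and 1 lower, with the homeobox gene Six6 at 35.3 and 37 FPKM in CrxRip/Rip, against 9.9 and 11 FPKM in wild type, and cyclin A2 (Ccna2) at 5.1 and 4.6 FPKM in CrxRip/Rip, against 11.1 and 11.4 FPKM in wild type. Among 7 growth factor genes 2 were higher, 1 lower and 4 not called. Inhbb, a subunit of activin, rose by 1.57 and the Wnt receptor Fzd4 fell by 0.70. The lower members of this list were 2 without wild-type replicate 1.

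Several genes of cells that lie beside the neural retina were higher in CrxRip/Rip. Of 10 pigment epithelium genes 8 were higher, 1 lower and 1 not called, where over all genes 36.3% were higher and 44.3% lower. The summed level of the list was 93.4 and 120.1 FPKM in CrxRip/Rip, against 46.9 and 65.5 FPKM in wild type. Ttr (transthyretin) had 15.8 and 21.2 FPKM in CrxRip/Rip, against 3.2 and 7.8 FPKM in wild type, Rgr had 14.9 and 15.2 FPKM in CrxRip/Rip, against 2 and 5.6 FPKM in wild type, and the melanin enzyme Tyrp1 had 2.1 and 4.7 FPKM in CrxRip/Rip, against 0.6 and 0.8 FPKM in wild type, a rise of 1.31 that was 0.87 without CrxRip/Rip replicate 2. Krt18, a keratin, was the lower member (1.4 and 1.5 FPKM in CrxRip/Rip, against 16.7 and 18.2 FPKM in wild type). The part of attached pigment epithelium in the higher retinoid genes was not tested. Of 10 vascular genes, 5 were lower, near the share over all genes, 1 higher and 4 not called. The endothelial Cldn5 was at 3.2 and 3.2 FPKM in CrxRip/Rip, against 5.8 and 5.4 FPKM in wild type. Kdr, also made by horizontal cells, was at 51 and 32.6 FPKM in CrxRip/Rip, against 15.7 and 16.7 FPKM in wild type. The lower vascular genes were 3 instead of 5 without CrxRip/Rip replicate 2 or without either wild-type sample. Of 5 haemoglobin genes and 4 lens crystallin genes 0 were called in either direction by limma, each list with 0 genes at an unadjusted p under 0.05, and the authors' deposited table called 3 haemoglobin and 0 crystallin genes. The crystallin sum was 0.3 and 58.3 FPKM in CrxRip/Rip, against 41.6 and 9.7 FPKM in wild type, so it varied within both groups. The haemoglobin sum was 8.9 and 44.5 FPKM in CrxRip/Rip, against 26.1 and 37.6 FPKM in wild type.

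**Figure D4:**
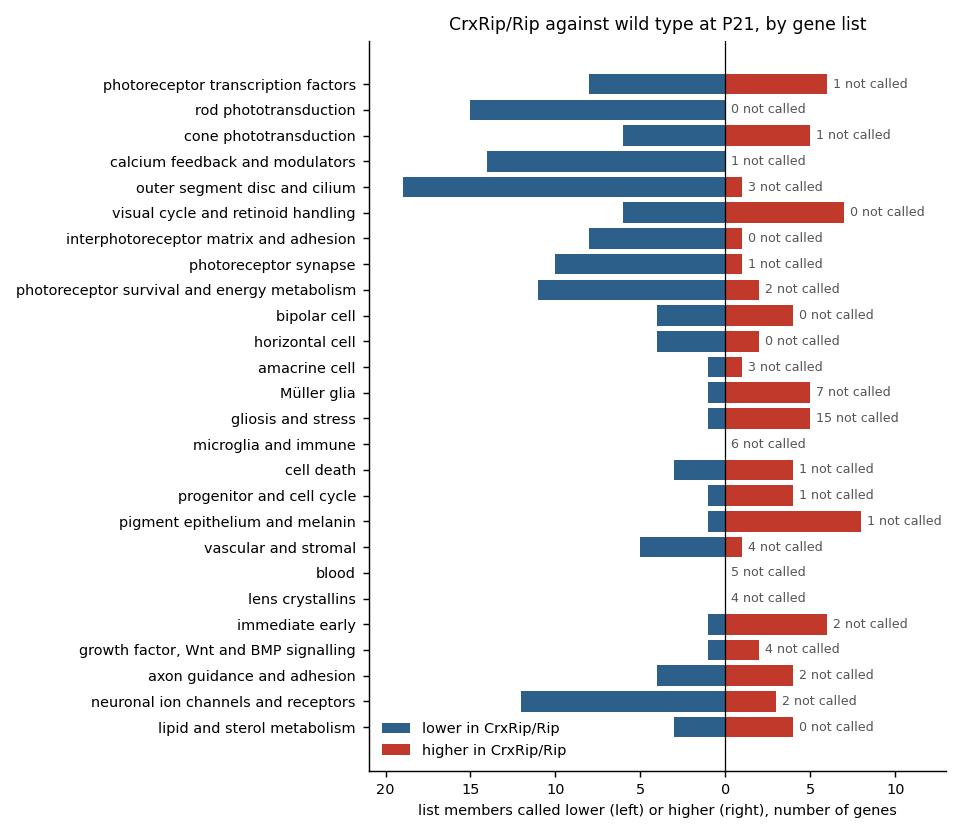
Number of members of each gene list with at least 4 genes in the P21 table that were called lower (bars to the left) or higher (bars to the right) in CrxRip/Rip against wild type, with the number not called beside the bars. Rod phototransduction has 15 lower members and 0 higher, cone phototransduction has 6 lower and 5 higher, and the microglia, blood and lens lists have bars of 0. Over all 1497 genes 44.3% were lower and 36.3% higher.

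The comparison of CrxRip/Rip with CrxRip/+ sets 2 mutant copies beside 1 mutant and 1 wild-type copy at P21. The gain of a mutant copy and the loss of the wild-type copy cannot be told apart. Genes of the light response that CrxRip/+ still expressed were lower in CrxRip/Rip, among them Pde6h, Rcvrn and Pde6a. Of the 1497 genes 165 were higher (11.0%) and 538 lower (35.9%) in CrxRip/Rip. The split depends on scaling, and with the median of ratios 304 were higher and 269 lower. Pde6h had 4.7 and 4.3 FPKM in CrxRip/Rip, against 37.5 and 149.9 FPKM in CrxRip/+, and fell by 3.79 ± 0.50 (SE). Rcvrn had 4 and 9.8 FPKM in CrxRip/Rip, against 131.1 and 60.2 FPKM in CrxRip/+. Impg1, Rdh8 and Pde6a changed by -3.63, -3.18 and -3.05, and in these 3 genes the CrxRip/+ level lay between CrxRip/Rip and wild type. Chrnb4 had 48.4 and 35.3 FPKM in CrxRip/Rip, against 2.5 and 7.4 FPKM in CrxRip/+, and Atp13a5 had 16.8 and 17.2 FPKM against 1.5 and 1.5 FPKM. Both CrxRip/Rip samples were above both CrxRip/+ samples in each. Arid3c, Ermap and Mybph were higher as well, by 3.45, 3.53 and 2.77 (Mybph 1.40 without CrxRip/Rip replicate 2, and not called with only these 2 genotypes fitted). Of the 15 rod genes 9 were lower and 0 higher, and of the 12 cone genes 9 were lower and 1 higher. Otx2 had 263.5 and 289 FPKM in CrxRip/Rip, against 153.3 and 152.7 FPKM in CrxRip/+, a rise of 0.85. No called gene of this paragraph had an adjusted p above 0.0125 (limma).

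The comparison with Crx-/- asks where 2 dominant mutant copies differ from absence of Crx function. Rod factors that Crx-/- retina expressed were near 0 in CrxRip/Rip. Of the 1497 genes 291 were higher (19.4%) and 508 lower (33.9%) in CrxRip/Rip, and 406 and 391 with the median of ratios. Samd7 had 0 and 0.1 FPKM in CrxRip/Rip, against 146.2 and 132.6 FPKM in Crx-/-, a level above that of wild type. It fell by 7.06 ± 0.10 (SE). Nrl had 0.1 and 0.2 FPKM in CrxRip/Rip, against 87.2 and 82 FPKM in Crx-/-, and Nr2e3, listed at 0 in CrxRip/Rip, had 118 and 110 FPKM in Crx-/-. Cnga1, listed at 0 in CrxRip/Rip, had 59.6 and 54.3 FPKM in Crx-/-. In each of these 4 genes no sample of one genotype reached the other. Ankrd33 was the opposite case, with 52.9 and 71.7 FPKM in CrxRip/Rip, against 2.8 and 2.2 FPKM in Crx-/-, and was higher by 4.17 ± 0.16. Acbd7, Atp13a5, Ermap and Tmem26 were higher by 3.82, 3.79, 3.10 and 3.04. Of the 15 rod genes 13 were lower and 0 higher. Gnb3 was lower, with 108.8 and 144 FPKM in CrxRip/Rip, against 364.6 and 312 FPKM in Crx-/-, and Rxrg had 6.4 and 8.2 FPKM against 33.7 and 30.6 FPKM. The transcript level of Crx itself was 174.1 and 218.8 FPKM in CrxRip/Rip, against 167.9 and 171.4 FPKM in Crx-/-, and it was not called (adjusted p = 0.209), except without CrxRip/Rip replicate 1 and after the median of ratios (0.37 in both). Otx2 was higher in CrxRip/Rip by 0.47 ± 0.11, a call that was lost with only these 2 genotypes fitted. No called gene of this paragraph had an adjusted p above 0.00628 (limma).

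The comparison with Nrl-/- sets CrxRip/Rip beside a retina in which cells that would become rods take on cone features. Gnat1 was near 0 in both, and the 5 largest falls against Nrl-/- were all cone genes. Of the 1497 genes 317 were higher (21.2%) and 683 lower (45.6%) in CrxRip/Rip, and 489 and 478 with the median of ratios. Opn1sw had 0.2 and 0.2 FPKM in CrxRip/Rip, against 2501 and 2298.6 FPKM in Nrl-/-, and fell by 10.96 ± 0.11 (SE). Arr3 had 0.4 and 0.8 FPKM in CrxRip/Rip, against 678 and 707.8 FPKM in Nrl-/-. Opn1mw and Pde6h changed by -7.32 and -6.68, and Cnga3, listed at 0 in CrxRip/Rip, had 52.8 and 46.4 FPKM in Nrl-/-. Of the 12 cone genes 12 were lower and 0 higher, so the cone genes that were above wild type in CrxRip/Rip were below Nrl-/-. Gngt2, for example, had 157.2 and 229.1 FPKM in CrxRip/Rip, against 655.3 and 658 FPKM in Nrl-/-. Gnat1 had 0.2 and 0.4 FPKM in CrxRip/Rip, against 0.3 and 0.3 FPKM in Nrl-/-. Of the 15 rod genes, however, 10 were lower and 0 higher, with a median difference of -0.8, against -0.28 over all genes. Acbd7, Atp13a5, Kif19a, Mybph and Galnt14 were higher by 3.82, 3.49, 3.15, 3.05 and 2.54 (Mybph 1.69 without CrxRip/Rip replicate 2, and not called with only these 2 genotypes fitted). No called gene of this paragraph had an adjusted p above 0.00464 (limma).

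Over all 10 samples at P21, both CrxRip/Rip samples lay below the other 8 samples in 261 genes and above them in 128 genes. These counts describe the 10 samples and carry no test. Otx2, Chgb, Atp13a5, Acbd7 and Slitrk6 were among the 128, and Rdh8, Pde6h, Impg1, Pde6a and Samd7 among the 261. Chgb had 644.9 and 680.2 FPKM in CrxRip/Rip, 264.2 and 273 FPKM in CrxRip/+, 354.9 and 304.9 FPKM in Crx-/-, 197.8 and 198.5 FPKM in Nrl-/- and 107.8 and 101.9 FPKM in wild type. Slitrk6 had 45.2 and 39.5 FPKM in CrxRip/Rip, 11.2 and 10 FPKM in CrxRip/+, 12.9 and 12.2 FPKM in Crx-/-, 12 and 11.7 FPKM in Nrl-/- and 10.2 and 9 FPKM in wild type. In both genes the other mutants lay closer to each other than to CrxRip/Rip.

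For 198 genes the same genotypes could also be read at P2, when rods are still being born. The tables were scaled separately and selected separately, so values of the 2 ages are set side by side with no test. Of the 86 of these genes that were called lower at P21, 78 (90.7%) had both CrxRip/Rip samples below both wild-type samples at P2 as well, 1 had both above and 7 overlapped. Over all 198 genes listed at both ages, 119 (60.1%) had both samples below at P2 and 31 (15.7%) both above, and over all 566 genes listed at P2 the counts were 189 (33.4%) and 110 (19.4%). Of the 71 genes called higher at P21, 27 (38.0%) were above wild type at P2, 23 (32.4%) below it and 21 overlapped. Nrl at P2 had 36.5 and 43.2 FPKM in CrxRip/Rip, against 69.4 and 81 FPKM in wild type, a difference of -0.90 at P2 and -8.61 at P21. Nr2e3 at P2 had 61.4 and 70.2 FPKM in CrxRip/Rip, against 120.3 and 143.8 FPKM in wild type. Both were thus clearly expressed in CrxRip/Rip at P2 and were near or at 0 at P21. Samd7 and Opn1sw were already low at P2, with 0.1 and 0.2 and 0.1 and 0.1 FPKM in CrxRip/Rip, against 20.7 and 27 and 40.6 and 43 FPKM in wild type.

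Of the 5 cone phototransduction genes called higher at P21, 4 were listed at P2, and all 4 were below wild type there. So were Opn1sw, Pde6h and Cnga3, which were lower at P21, and Gnb3, which was not called. Over all 198 genes listed at both ages, 60.1% were below wild type at P2. Gngt2 at P2 had 50.4 and 63.4 FPKM in CrxRip/Rip, against 171.1 and 190 FPKM in wild type, a difference of -1.66 at P2 and 1.88 at P21. Cngb3 at P2 had 1.4 and 1.5 FPKM in CrxRip/Rip, against 6.7 and 7 FPKM in wild type, a difference of -1.68 at P2. Pde6c, Gnat2 and Rxrg had P2 differences of -1.30, -2.48 and -1.32. In wild type these levels were higher at P2 than at P21 for Gngt2, Cngb3 and Rxrg and lower for Pde6c and Gnat2, as far as separately scaled tables can be read together. Egr1 at P2 had 0.7 and 0.7 FPKM in CrxRip/Rip, against 3.4 and 3.9 FPKM in wild type. Acbd7, Slitrk6, Chgb and Arid3c were above wild type at both ages, with P2 differences of 2.06, 1.63, 1.08 and 0.42.

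**Figure D5:**
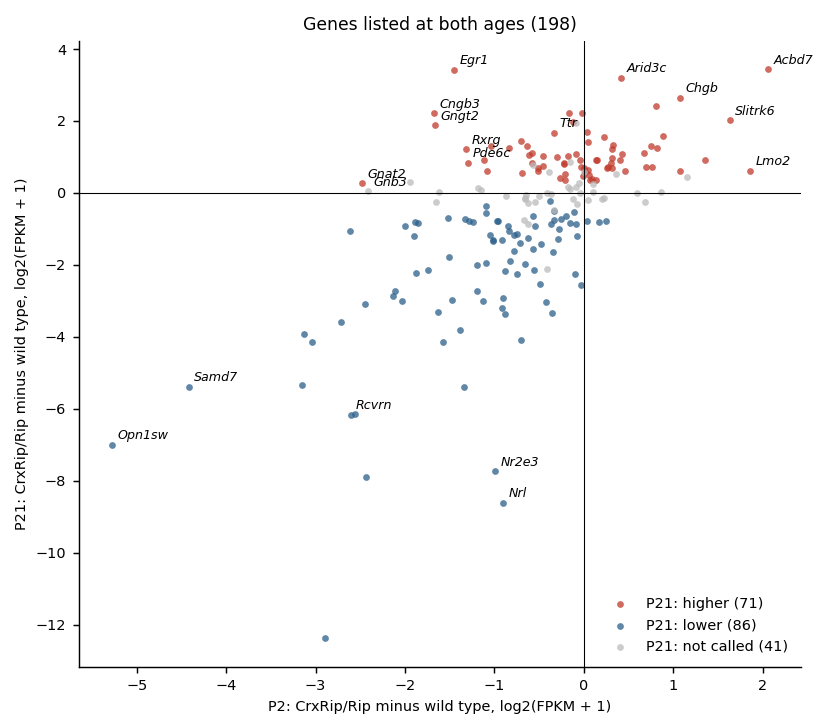
Difference of CrxRip/Rip from wild type in log2(FPKM + 1) at P2 (horizontal axis) and at P21 (vertical axis) for the 198 genes listed at both ages, each point 1 gene and coloured by its P21 call. Genes lower at P21 lie mostly at the lower left, while Egr1, Cngb3, Gngt2, Rxrg and Pde6c lie in the upper left, below wild type at P2 and above it at P21.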

How the data were processed

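RNA sequencing of whole mouse retina gave 1 table per age, with a value for each of 10 samples. Per the file headers the values of samples are FPKM, with 1 decimal. The authors' comparison columns hold their adjusted p value and their log2 fold change. DESeq is named in the submitters' processing notes, with no version. As to the aligner, counter, alignment build and read depth, nothing is given in the sources used here, so no counting interval was computed. Each gene of the deposited tables had passed the authors' adjusted p under 0.05 and log2 fold change of at least 1 in some comparison.

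Symbols and positions came from RefSeq genes of GRCm38.p6 by transcript identifier (1485 of 1497 matched). limma 3.58.1 in R 4.3.3 was fitted to log2(FPKM + 1) of the 10 P21 samples, with 1 term per genotype, a variance trend and moderation (5 residual and 3.06 prior degrees of freedom). P values were two-sided and adjusted over 1497 genes in each of 4 comparisons. The fit was tested on simulated data. With 2 samples per group, each a pool of 2 retinas, p values measure the spread between these samples. Alternatives were the pseudocount, a filter on mean FPKM, other scalings, other designs and each sample left out. Columns of samples without a match numbered 0.

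The genotypes, gene lists and tests were chosen with earlier results of these data known. Named genes were the photoreceptor transcription factors, the 15 largest rises and falls with a mean of at least 5 FPKM and no overlap, up to 6 called and 2 uncalled members per list, 5 per direction in each comparison with another mutant and the 5 highest genes of each group. A subset is given. Outside the rule, and chosen after their values were seen, were Cngb1, Pde6g, Gngt1, Grk1, Rgs9, Rgs9bp, Gnb5, Reep6, Gngt2, Pde6c, Slc24a2, Gnat2, Guca1a, Pdc, Aipl1, Unc119, Cdhr1, Bbs5, Pcdh15, Impg2, Cadm3, Slc17a7, Ldha, Slc16a1, Slc16a3, Pdzph1, Glp2r, Chst3, Tmem158, Rgs22, Trim43c, Ccdc175, Tnnc2, Cabp5, Prkca, Serpina3n, Ccn4, Gpr152, Gramd2, Hcls1, Myo7a, Ppm1n, Rdh5, Stra6 and Syne3. The sex-linked list had 0 genes in the table. Some list members are counted but not reported here by name.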

Additional observations from a re-analysis of the deposited data

Results flagged for a closer look

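In 8 named genes both CrxRip/Rip samples were above both wild-type samples at P21 and below them at P2. The difference between the ages was not tested, because the tables were scaled and selected separately. At P2 the differences of log2(FPKM + 1), CrxRip/Rip minus wild type, were -2.48 for Gnat2, -1.68 for Cngb3, -1.66 for Gngt2 and -1.30 for Pde6c, all cone phototransduction genes. They were -1.32 for Rxrg, a cone nuclear receptor, -0.51 for the zinc finger gene Sall3, -1.45 for the immediate early gene Egr1 and -0.33 for Ttr, a gene of the pigment epithelium. At P21 the same differences were 0.27 for Gnat2, 2.22 for Cngb3, 1.88 for Gngt2, 0.84 for Pde6c, 1.22 for Rxrg, 0.62 for Sall3, 3.42 for Egr1 and 1.67 for Ttr. Of the 71 genes called higher at P21 and listed at both ages, 23 (32.4%) were below wild type at P2, against 119 of all 198 genes listed at both ages (60.1%).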

How the results depend on the processing

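Of 156 called changes of named genes against wild type, 148 stayed called under all 11 alternatives, none reversed, and 19 moved by more than 1.5 times with a pseudocount of 0.1. The median change of all genes was -0.14, and -0.28 on the authors' scaling, which was added after seeing the data. Against wild type, the authors' deposited calls gave 292 higher genes. Against CrxRip/+ the counts were 304 higher and 269 lower with the median of ratios, 73 and 206 with only the 2 genotypes, and 82 and 192 in the authors' calls. Against Crx-/- the authors called 138 higher and 250 lower, and against Nrl-/- 148 and 435, with 489 higher after the median of ratios. The cause of these shifts was not tested. Leaving out 1 sample gave 491 to 540 higher and 619 to 669 lower genes against wild type.

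The replicate numbers did not pair the samples (correlations between deviations from -0.30 to 0.24), and a replicate block gave 542 higher and 658 lower genes, with 0 lower Müller glia genes and 2 lower growth factor genes. Small lists moved by 1 to 3 genes. With the median of ratios there were 2 higher amacrine, 0 lower Müller glia, 8 higher gliosis and 3 lower vascular genes. With only the 2 genotypes there were 2 lower amacrine, 0 lower Müller glia, 8 higher gliosis, 3 lower vascular and 1 higher growth factor genes. On the authors' scaling there were 2 lower amacrine, 0 higher ganglion, 2 lower Müller glia, 2 lower growth factor and 2 higher axon guidance genes. Leaving out 1 sample gave 3 to 4 higher cone, 1 to 2 higher amacrine, 0 to 1 higher ganglion, 4 to 8 higher and 0 to 2 lower Müller glia, 4 to 8 higher gliosis, 3 to 5 lower vascular, 1 to 2 lower growth factor and 2 to 4 higher axon guidance genes. A fit that leaves 1 sample in a group assumes that it varies like the other groups. The unknown depth and the rounding to 0.1 FPKM limit genes near 0.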
